A study of Mus musculus with 21 samples.

Results

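The 6 genes described here, Synj2, Serac1, Gtf2h5, Tulp4, Sytl3 and Ezr, lie on proximal chromosome 17 of the mouse. They were chosen by name, together with all probes whose position in the files (mm9 build) falls at 5 to 8 Mb of that chromosome. Of 96579 probes in the series, 126 lie in this region and 24 of these are named for the members, which are 6 of 23275 gene names on the arrays. The members come from the 1-Mb window at 6 to 7 Mb because, of all windows, it had the smallest p in the comparison of the treatment groups, so differences between the groups in this region are given as a description, without a test. The level of the region over all 21 tumours was not used for that choice and was tested.

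Genomic DNA from fixed, paraffin-embedded liver tumours was analysed by array comparative genomic hybridization, which measures copy number. All mice were C57BL/6 and had been fed CD-HFD, a choline-deficient high-fat diet that causes steatohepatitis, for 12 months. The anti-PD1 group, which also received an antibody against the T cell checkpoint receptor PD1 for 8 weeks, gave 12 tumours from 7 mice, and the CD-HFD group, on the diet alone, gave 9 tumours from 7 mice. Each tumour (Cy3) was hybridized against a common pool (Cy5) that the labels name as liver tails of C57BL/6 mice, without a dye swap. Lesions with the same leading number in their name were read as tumours of 1 mouse.

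In this assay a probe's log2 ratio of tumour over reference is 0 where both hold the same number of copies, and gains and losses move many neighbouring probes together. Single probes also depart from 0 for reasons of their own, such as their base composition or a sequence that occurs more than once. Proximal chromosome 17 of the mouse is known for the t haplotypes and for segmental duplications, that is, long stretches of DNA present in several near-identical copies. The members have separate functions. Ezr encodes ezrin, which links membrane proteins to actin, and Sytl3 a synaptotagmin-like protein that binds the GTPase Rab27 at vesicles. Synj2 encodes synaptojanin 2, an inositol 5-phosphatase, Gtf2h5 the smallest subunit of the repair and transcription factor TFIIH, Serac1 a protein of phosphatidylglycerol remodelling, and Tulp4 a member of the tubby-like family.

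The probes that carry the values are shown with G and C in capitals, since base composition affects hybridization. All were read from the plus strand and 7 of the 8 have 1 exact match in GRCm38, the genome to which the sequences were compared. The exception is the probe of ENSMUST00000163438, a transcript between Tulp4 and Sytl3, which has 2. From the start of the chromosome, they lie at chr17:6022186-6022245 (coding exon of Synj2), chr17:6071828-6071887 (coding exon of Serac1), chr17:6082038-6082097 (non-coding exon, Gtf2h5), chr17:6119845-6119904 and chr17:6224084-6224143 (introns of Tulp4), chr17:6371971-6372030 (intron, ENSMUST00000163438), chr17:6934353-6934412 (intron of Sytl3) and chr17:6968837-6968896 (intron of Ezr) in mm9.
Synj2: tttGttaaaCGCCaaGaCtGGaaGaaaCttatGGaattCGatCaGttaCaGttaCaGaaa
Serac1: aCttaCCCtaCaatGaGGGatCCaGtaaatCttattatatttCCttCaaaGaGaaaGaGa
Gtf2h5: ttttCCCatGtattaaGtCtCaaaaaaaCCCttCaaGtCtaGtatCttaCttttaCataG
Tulp4, first probe: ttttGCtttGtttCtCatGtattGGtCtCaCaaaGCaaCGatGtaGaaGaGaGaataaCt
Tulp4, last probe: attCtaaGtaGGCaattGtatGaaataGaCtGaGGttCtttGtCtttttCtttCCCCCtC
ENSMUST00000163438: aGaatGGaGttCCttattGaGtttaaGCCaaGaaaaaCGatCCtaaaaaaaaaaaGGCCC
Sytl3: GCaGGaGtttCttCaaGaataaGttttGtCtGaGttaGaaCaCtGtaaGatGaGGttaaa
Ezr: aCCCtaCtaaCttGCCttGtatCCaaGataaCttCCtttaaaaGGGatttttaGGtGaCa

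Of the 24 member probes, 16 lie in introns, 4 in coding exons, 3 in non-coding exons and 1 in a UTR. Tulp4 has 10 probes, Synj2 4, Serac1, Sytl3 and Ezr 3 each, and Gtf2h5 a single probe. The median GC content of the member probes was 36.7%, the same as that of the 3686 probes on the rest of chromosome 17. Tumours on slide 1 were hybridized to array design A (8 tumours of 6 mice, 4 of each group) and those on slides 2 and 3 to design B (13 tumours of 10 mice, 8 anti-PD1 and 5 CD-HFD). Design A holds 11 member probes and design B 18, with 5 on both, and Gtf2h5 is on design B alone. The probes leave a gap of 462 kb between chr17:6449666 and the first Sytl3 probe at chr17:6911620.

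The arrays differed in quality, and 6 lesions stood apart in a duplicated stretch of the region described below. Between 65.0 and 100% of the spots of an array were well above background in the tumour channel, lowest in lesion 1 of mouse 608, and the number of arrays limits the precision. The 6 lesions are those of the anti-PD1 mice 604, 608 and 612, and the main results are given with and without them. They are also the whole anti-PD1 group on design A, so a comparison of the groups on that design has no value without them.

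The level of a probe, gene or window is its log2 ratio, centred on the array's median, minus the mean of the chromosome 17 probes outside 5 to 8 Mb on the same array. Over the 21 tumours the region was not at 1 level. The window at 6 to 7 Mb, which holds the members apart from the start of Synj2, was higher than the rest of the chromosome by 0.20 (SE 0.025, limma, adjusted p = 5.93e-08), and by 0.28 without mice 604, 608 and 612. The size depended on the probes used. It was 0.54 in the loess-normalized table, which holds part of the probes, and 0.70 with the probes on both designs. Without a duplicated stretch and a dim Tulp4 probe, both described below, the mean over the tumours changed from 0.17 ± 0.078 to 0.016 ± 0.10 on design B (SD, n = 13) and from 0.28 ± 0.18 to 0.30 ± 0.15 on design A (n = 8). The window at 5 to 6 Mb was higher by 0.077 (SE 0.013, adjusted p = 1.26e-05), and the one at 7 to 8 Mb was lower (level -0.25, SE 0.016, adjusted p = 4.2e-13). These calls are common on these arrays, where 81% of 2224 windows passed the same test, 47.1% higher and 33.9% lower. At 6 to 7 Mb, 10.7% of windows had a higher level, while the window at 7 to 8 Mb was among the lowest, at rank 2176 of 2224 from the top. Sections hold tumour and other cells, so that a change in fewer cells and a smaller change in all cells cannot be told apart.

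Within each window the probes scattered on both sides of 0. At 6 to 7 Mb the probe levels outside a duplicated stretch described below ran from -0.81 to 1.21 in 22 probes, of which 8 were called higher and 9 lower. Among the 65 probes at 5 to 6 Mb, 23 were called higher and 22 lower, and among the 20 probes at 7 to 8 Mb outside a duplicated stretch there, 2 were called higher and 13 lower. The background for such calls was 69.5% of the probes on design A (33% higher, 36.4% lower), 75.6% on design B (36.2% higher, 39.4% lower) and 80.7% of those on both (39.5% higher, 41.1% lower). The span between single oligos was therefore wider than the span between the windows.

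**Figure D1:**
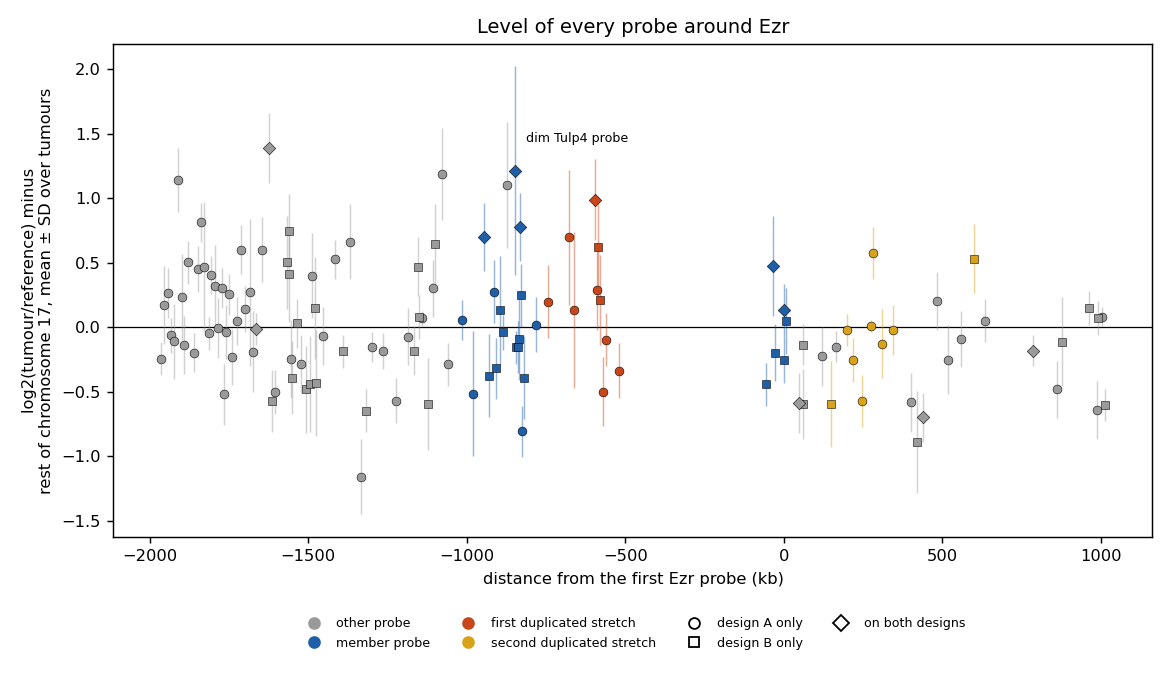
Level of each of the 126 probes against its distance from the first Ezr probe (kb). Points are means over the tumours that carry the probe, lines are ± SD, marker shape gives the array design, and the 10 probes of the first duplicated stretch include the last Tulp4 probe. Member probes lie between -0.81 and 1.21, on both sides of 0.

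The borders of the region were fixed by position and not by a step in the values. The first probe inside 5 Mb, in Arid1b, had a level of -0.25 ± 0.13 (SD, 8 tumours) and the last one outside 0.56 ± 0.24 (8 tumours). The last probe inside 8 Mb, in Fndc1, had -0.60 ± 0.12 and the next one outside -0.097 ± 0.16 (SD, 13 tumours each).

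Of the 5 members with probes on both designs, Synj2 and Tulp4 were higher than the rest of the chromosome, and Ezr, Serac1 and Sytl3 did not pass the test. The background was 78.4% of 12805 gene names, 38.5% higher and 40% lower, so the share of members called was below it. The median of the absolute level over all gene names was 0.23, and 4 of the 5 members had a smaller level than that.

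Ezr did not pass the test against the rest of its chromosome, and its probes disagreed. On design A its level was 0.40, -0.10, 0.24 and 0.077 in the anti-PD1 tumours and 0.043, -0.11, -0.14 and 0.20 in the CD-HFD tumours. On design B it ran from -0.18 over a median of 0.055 to 0.22 in the 8 anti-PD1 tumours, and was -0.13, -0.30, -0.10, -0.062 and 0.10 in the CD-HFD tumours. The groups overlapped on both designs, with lesion 1 of mouse 604 highest and lesion 2 of the CD-HFD mouse 2064 lowest. Over all tumours the level was 0.032 (SE 0.037, adjusted p = 0.43). Of its 3 intronic probes, the probe on both designs was called higher (0.12, adjusted p = 0.015) and the first one lower (-0.25, adjusted p = 0.00052). Without the 6 lesions of mice 604, 608 and 612, the level of the gene was -0.0091. It passed the test in the loess-normalized table (0.11), when every level was taken from probes on both designs (0.14) and after correction for probe and surrounding GC (0.15).

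Sytl3, which lies just before Ezr, varied more than any other member on design A. Its level there was 0.29, -0.74, 0.29 and 0.59 in the anti-PD1 tumours and 0.68, 0.13, 1.02 and 0.32 in the CD-HFD tumours. On design B the 8 anti-PD1 tumours ran from -0.12 over a median of -0.11 to 0.18, and the CD-HFD tumours had -0.14, 0.024, 0.28, -0.13 and -0.045. The value of -0.74 was that of lesion 1 of mouse 608, the array with the fewest spots above background, and the groups overlapped on both designs. The level over all tumours was 0.13 (SE 0.066, adjusted p = 0.068), and without mouse 608 it was 0.23 (adjusted p = 0.00024). Without the 6 lesions of mice 604, 608 and 612 it was 0.25 (limma, adjusted p = 0.0012). It also passed in the loess-normalized table (0.20), with normexp background correction (0.37), with spots well above background (0.22), with probes on both designs (0.45) and after correction for probe and surrounding GC (0.18). On design A the gene has a single probe, the one shown above, with a level of 0.43 (adjusted p = 1.35e-05) over both designs. The 2 probes that only design B carries were called lower, at -0.44 and -0.20.

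Synj2 has its first probe at chr17:5953614, before the 6 Mb border, and its last ends at chr17:6039173. On design A the anti-PD1 tumours had levels of 0.081, 0.43, 0.080 and 0.069 and the CD-HFD tumours 0.060, -0.17, -0.024 and -0.042. All 4 of these anti-PD1 tumours are lesions of mice 604, 608 and 612. On design B the anti-PD1 tumours ran from -0.30 over a median of 0.19 to 0.56, and the CD-HFD tumours, at 0.054, 0.32, 0.17, 0.30 and 0.28, lay within that range. The direction thus differed between the designs. The fitted difference of anti-PD1 minus CD-HFD was 0.28 (SE 0.11) on design A and -0.14 (SE 0.097) on design B. These fits used array-centred values, without the rest of chromosome 17 subtracted. The mean levels of the anti-PD1 and CD-HFD tumours were 0.16 and -0.043 on design A and 0.16 and 0.22 on design B. The test of the groups, over the tumours of both designs, was passed by 0% of 12805 gene names. Over all tumours the level was 0.12 (SE 0.042, adjusted p = 0.0089), and it did not pass without mouse 608 (0.081, adjusted p = 0.10) or without all 6 lesions of mice 604, 608 and 612 (0.070, adjusted p = 0.25). It also did not pass after correction for probe GC (0.086), against the surrounding 10 Mb (0.071) or within design A (0.068), and was 0.42 in the loess-normalized table and 0.70 when every level on the arrays was taken from probes on both designs. The coding-exon probe on both designs stood at 0.68 (adjusted p = 3.75e-11), while the second intronic probe and the UTR probe were called lower, at -0.48 and -0.37.

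Serac1 gave opposite signs on the array designs, which measure it with different oligos. The intronic probe of design A had levels of 0.62, 0.42, -0.029 and 0.53 in the anti-PD1 tumours and -0.056, 0.15, 0.29 and 0.26 in the CD-HFD tumours. On design B, with 2 coding-exon probes, the anti-PD1 tumours ran from -0.50 over a median of 0.0068 to 0.43 and the CD-HFD tumours had -0.71, -0.13, -0.43, -0.15 and 0.22. The groups overlapped on both designs. Over all tumours the level was 0.086 (SE 0.058, adjusted p = 0.18) and without the 6 lesions of mice 604, 608 and 612 it was 0.025. It passed with normexp (0.27) and within design A (0.25), and design B was lower than design A by 0.37 (difference -0.37, adjusted p = 0.013). Of the coding-exon probes, 1 was called lower, at -0.32, and the one shown above was at 0.13 (adjusted p = 0.26).

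Gtf2h5, measured by its single probe on design B, had levels between -0.18 and 0.19 in the 8 anti-PD1 tumours, with a median of -0.0016. The 5 CD-HFD tumours had 0.025, -0.22, -0.016, -0.33 and 0.021, and the groups overlapped. Over the 13 tumours the level was -0.042 (adjusted p = 0.44 among the probes of design B).

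Tulp4, with the most probes, had the highest level of the members over all tumours. On design A its level was 0.43, -0.048, 0.40 and -0.19 in the anti-PD1 tumours and 0.39, 0.23, 0.33 and 0.43 in the CD-HFD tumours. On design B it ran from -0.026 over a median of 0.18 to 0.37 in the 8 anti-PD1 tumours and was 0.27, 0.35, 0.18, 0.26 and 0.35 in the CD-HFD tumours. The groups overlapped on both designs, and the 2 lowest tumours of design A and the lowest of design B were anti-PD1 tumours. The fitted level was 0.23 (SE 0.037, adjusted p = 5.49e-06), and 0.29 without mice 604, 608 and 612. It was 0.59 in the loess-normalized table and 0.99 with the 2 probes on both designs, of which 1 is the dim probe described next.

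That level rested on a probe near the detection limit. The first Tulp4 probe, at chr17:6119845-6119904, was well above background in 5 of 21 tumour spots and in 1 of 21 reference spots. Its levels ran from -0.74 to 2.80 with a median of 1.42 and an SD of 0.81, the widest spread of any member probe. Over all member probes, 301 of 322 spots were well above background in each channel. When spots that were not well above background in both channels were left out, Tulp4 fell to 0.047 (SE 0.028, adjusted p = 0.12) and was no longer called. Of its other 9 probes, the second one on both designs was called higher (0.78, adjusted p = 3.45e-12), as was the coding-exon probe (0.25, adjusted p = 0.0027), and 4 were called lower, down to -0.81.

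**Figure D2:**
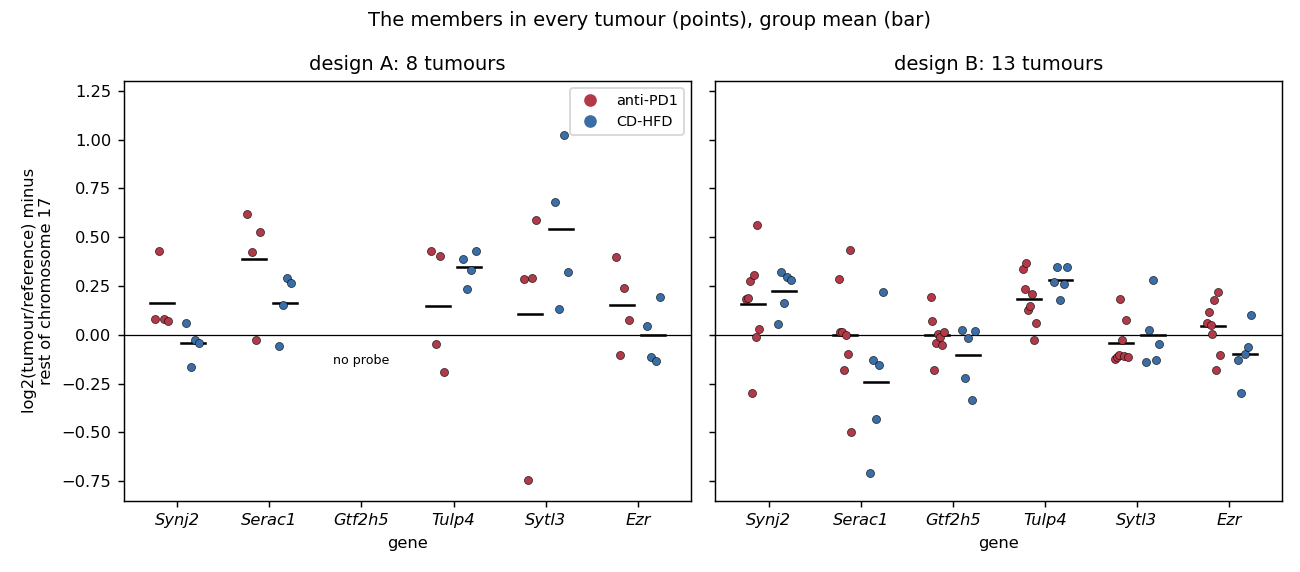
Level of each member (x axis) in each tumour, for array design A and B, as log2 tumour over reference minus the rest of chromosome 17. Points are tumours, coloured by group, and bars are group means. The groups overlap for Ezr, Serac1, Sytl3 and Tulp4 on both designs and for Synj2 and Gtf2h5 on design B. On design A, the anti-PD1 tumours are all from mice 604, 608 and 612.

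The order of the members depended on the array design. On design A, the means over 6 mice were 0.40 ± 0.41 for Sytl3, 0.33 ± 0.21 for Serac1, 0.25 ± 0.23 for Tulp4, 0.095 ± 0.19 for Ezr and 0.048 ± 0.12 for Synj2 (SD). On design B, the means over 10 mice were 0.21 ± 0.12 for Tulp4, 0.19 ± 0.23 for Synj2, 0.0025 ± 0.14 for Ezr, -0.0048 ± 0.14 for Sytl3, -0.061 ± 0.12 for Gtf2h5 and -0.068 ± 0.26 for Serac1. Every pair of neighbours in these orders differed by less than the SD of its difference over mice. Closest to it was Synj2 against Ezr on design B, with 0.188 ± 0.198 and Synj2 higher in 9 of 10 mice. Across tumours the members did not follow one another closely, with Pearson's r between -0.40 (Tulp4 and Serac1, 21 tumours) and 0.34 (Ezr and Gtf2h5, 13 tumours). All of these values share their arrays and the same reference pool.

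The designs were compared directly. Design B was lower than design A by 0.089 at 5 to 6 Mb (difference -0.089, adjusted p = 0.011) and by 0.11 at 7 to 8 Mb (difference -0.11, adjusted p = 0.0087), and differed by -0.096 (adjusted p = 0.12) at 6 to 7 Mb. Of all windows, 59.8% passed this test. Among the genes, Serac1 and Sytl3 (difference -0.35, adjusted p = 0.036) passed, both lower on design B, beside 51.2% of gene names (26.5% higher, 24.7% lower). Of the 5 member probes that both designs carry, 0 passed, beside 0.0393% of the common probes. Slide 1 carried design A and slides 2 and 3 design B, so design and slide cannot be told apart in the probes of 1 design.

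The fitted difference between the groups at 6 to 7 Mb, the value behind the choice of the members, was -0.19 for anti-PD1 minus CD-HFD (SE 0.054, on array-centred values). It was -0.055 (SE 0.052) at 5 to 6 Mb and 0.0060 (SE 0.055) at 7 to 8 Mb. No window (0% of 2224) and no gene name passed the test across all features with limma. Without adjustment, 20 windows (0.899%) and 317 gene names (2.48%) had a p under 0.05. The members did not share the sign of the window. Their fitted differences were -0.27 (SE 0.15) for Sytl3, -0.18 (SE 0.088) for Tulp4, 0.0078 (SE 0.093) for Synj2, 0.092 (SE 0.083) for Ezr and 0.14 (SE 0.13) for Serac1. In the loess-normalized table, the sign turned for Tulp4 (0.20, SE 0.11) and Ezr (-0.054, SE 0.10), and with normexp background correction for Serac1 (-0.028). All of these fits used array-centred values, without the rest of chromosome 17 subtracted. On levels with it subtracted, adjusted for the array design, the differences of the means over mice had other sizes. They were -0.16 for Sytl3, -0.12 for Tulp4, 0.021 for Synj2, 0.15 for Ezr and 0.24 for Serac1. Gtf2h5 had mean levels over mice of -0.031 ± 0.089 (SD, n = 6) with anti-PD1 and -0.11 ± 0.16 (n = 4) with CD-HFD.

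The probes of a stretch between Tulp4 and Sytl3 were all lower in the anti-PD1 group. From chr17:6224084 to chr17:6449666 there are 10 probes, the last of Tulp4, 2 of Tmem181a, 6 of ENSMUST00000163438 and 1 of Tmem181b-ps. Each occurs at 2 or 3 places on proximal chromosome 17 of GRCm38 when up to 5 mismatches are allowed. The ENSMUST00000163438 probe shown above, for example, has exact matches at chr17:6371971-6372030 and chr17:6538846-6538905 of that build. In all 10 the mean of the anti-PD1 mice was below that of the CD-HFD mice, by differences of -0.24 to -0.77 with a median of -0.46. Of these probes 7 are on design A alone, where the anti-PD1 mice are 604, 608 and 612. On design B, 3 of 3 probes were lower in the anti-PD1 mice, by -0.31 to -0.55, and by -0.14 to -0.33 without mice 608 and 612. Of the 23 member probes outside the stretch, 8 were lower and 15 higher in the anti-PD1 mice, with a median difference of 0.056. The lowest of these were the dim Tulp4 probe at -0.72, a Tulp4 probe of design B at -0.44, which was above background on all 13 arrays, and a Sytl3 probe at -0.22. The stretch was picked after these values were seen.

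**Figure D3:**
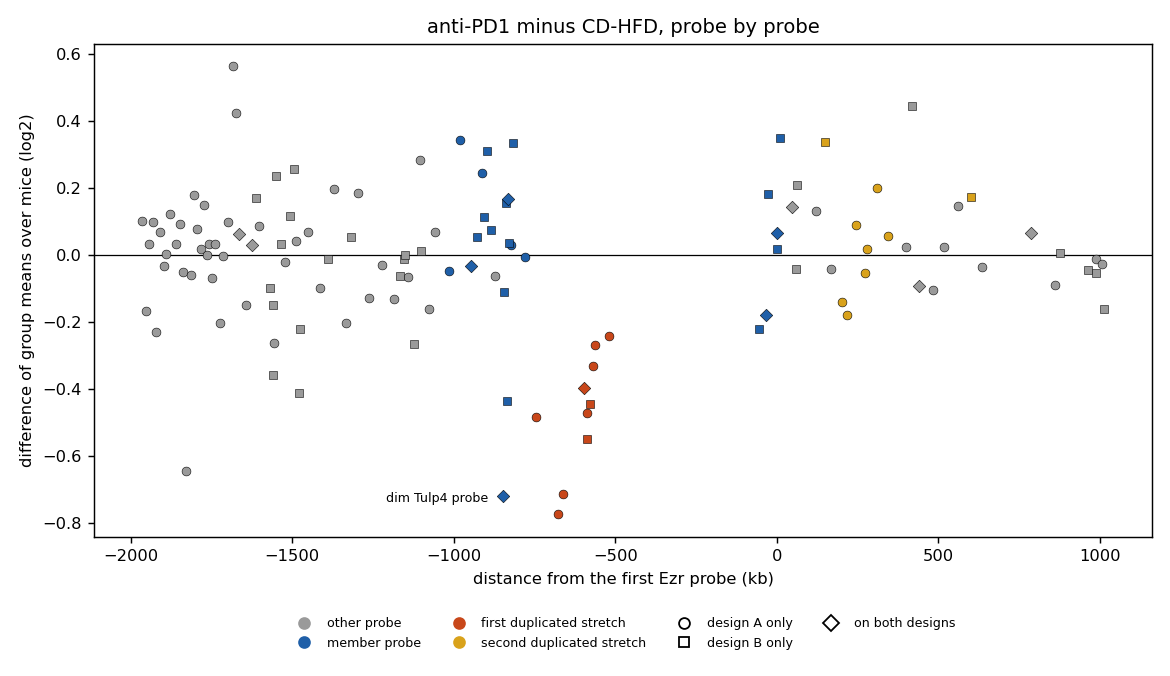
Difference of the group means over mice (anti-PD1 minus CD-HFD, log2) for each of the 126 probes against the distance from the first Ezr probe (kb). The 10 probes of the first duplicated stretch all lie between -0.24 and -0.77, and the dim Tulp4 probe lies at -0.72. The other member probes lie on both sides of 0.

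The means of the mice at 6 to 7 Mb are given with and without the stretch, after adjustment for the array design. The stretch and the dim Tulp4 probe were picked after their group values were seen. A smaller difference without them is therefore a description and not a test of where the difference lies. With all probes the window stood at 0.19 ± 0.091 in the anti-PD1 mice and 0.31 ± 0.10 in the CD-HFD mice (SD, n = 7 each), a difference of -0.12. Without the stretch the means were 0.26 ± 0.13 and 0.26 ± 0.093, a difference of -0.0022, and without the dim Tulp4 probe as well they were 0.21 ± 0.11 and 0.15 ± 0.10. The stretch itself stood at 0.26 ± 0.19 and 0.65 ± 0.10. On design B alone it stood at 0.45 ± 0.29 in 6 anti-PD1 mice and 0.88 ± 0.13 in 4 CD-HFD mice, and at 0.62 ± 0.095 in the 4 anti-PD1 mice other than 608 and 612. The fitted differences are on another scale, with array-centred values and no design term. Without the duplicated probes, the fitted difference of the window was -0.088 (SE 0.081) in place of -0.19. With the design term it was -0.053 (SE 0.051) without these probes. For Tulp4, leaving out its dim probe changed the means from 0.19 ± 0.17 and 0.31 ± 0.070 to 0.046 ± 0.054 and 0.051 ± 0.065.

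Within the stretch, the lesions of mice 604, 608 and 612 had the lowest values. On design A, where these mice are the whole anti-PD1 group, the stretch had levels of -0.026, -0.27, -0.081 and -0.0061, against 0.34, 0.35, 0.51 and 0.42 in the CD-HFD tumours. On design B, lesion 3 of mouse 608 and lesion 5 of mouse 612 had 0.041 and 0.15. The other 6 anti-PD1 tumours there ran from 0.41 to 0.76, with a median of 0.60, and the CD-HFD tumours had 0.87, 0.89, 0.74, 0.85 and 1.05. The probe of ENSMUST00000163438 on both designs showed the same 6 lesions at the bottom, at 0.48 to 0.67. All other tumours lay at 1.003 to 1.58, with 1.003 to 1.26 in the other 6 anti-PD1 tumours and 1.05 to 1.58 in the CD-HFD tumours. Over this probe the treatment groups as a whole overlapped.

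The low lesions were on both designs, as mice 608 and 612 had lesions on each. Of their spots in the stretch, 37 of 38 were well above background in the tumour channel and 38 of 38 in the reference channel, and 65 of 65 were so in each channel in the other tumours. The cause of their low values was not tested.

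**Figure D4:**
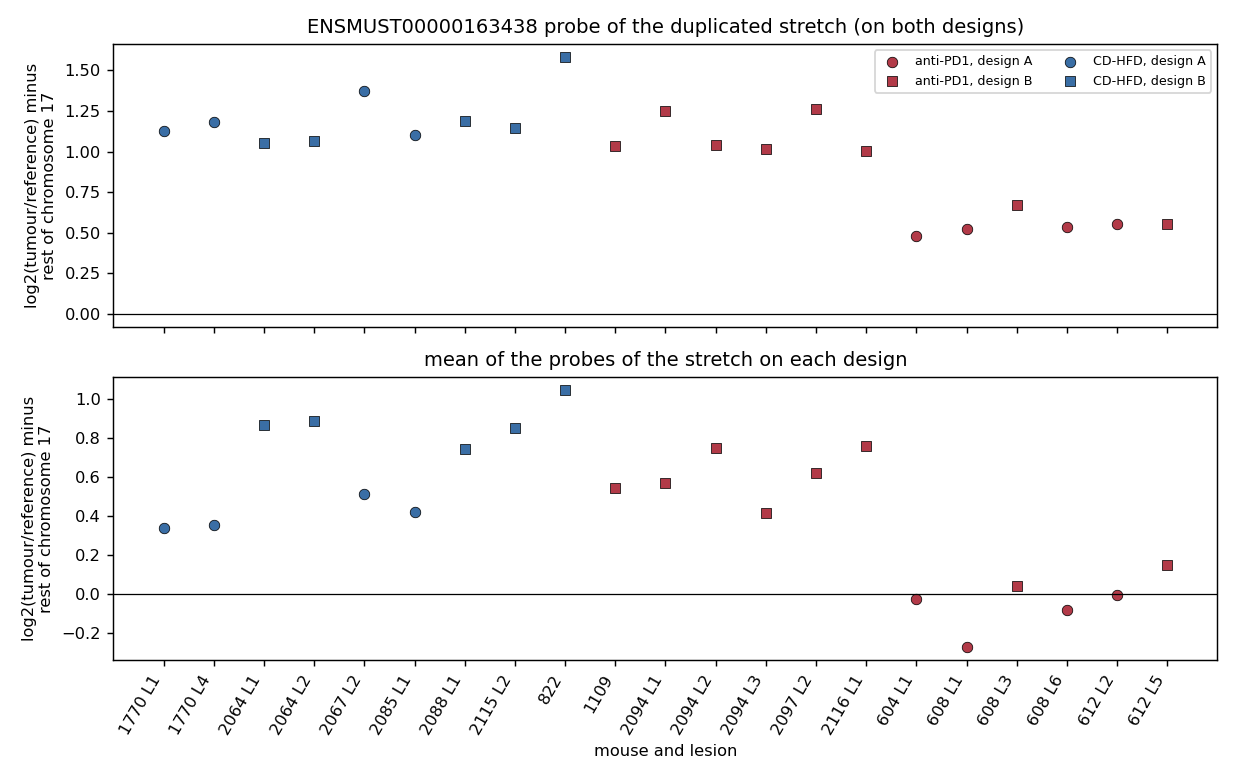
Level of the ENSMUST00000163438 probe (top) and mean level of the probes of the stretch (bottom) in each tumour, coloured by group with the marker giving the array design. In the top panel the 6 lesions of mice 604, 608 and 612 have the lowest levels, 0.48 to 0.67. The means below rest on different probes on each design.

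Leaving out mice 604, 608 and 612 kept 9 CD-HFD tumours and 6 anti-PD1 tumours, all of the latter on design B. On array-centred values, the fitted difference at 6 to 7 Mb was then -0.18 (SE 0.059), and -0.10 (SE 0.054) with the array design as a term. With all mice and the design term it was -0.18 (SE 0.047). Among the members, leaving out these mice alone moved Serac1 most, from 0.14 to 0.011 (SE 0.15), while Sytl3 went from -0.27 to -0.33 (SE 0.17). With the design term as well, Sytl3 was at -0.098 (SE 0.15), Synj2 at -0.14 (SE 0.11), Tulp4 at -0.17 (SE 0.092) and Serac1 at 0.18 (SE 0.14). On design B, the member levels of the 2 lesions of these mice lay within the range of the other tumours, for example for Ezr at -0.18 and 0.18 against -0.30 to 0.22. On design A, the 4 lesions reached outside the range of the CD-HFD tumours for each of the 5 members measured there. Their highest levels were 0.40 against 0.20 for Ezr, 0.62 against 0.29 for Serac1 and 0.43 against 0.060 for Synj2, and their lowest were -0.74 against 0.13 for Sytl3 and -0.19 against 0.23 for Tulp4.

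Lesions of 1 mouse on the same array design differed from one another by up to 1.03. The 3 lesions of mouse 2094 spanned 0.22 for Ezr, 0.78 for Serac1 and 0.012 for Sytl3, and the 2 lesions of mouse 608 on design A spanned 0.34, 0.45 and 1.03. In the stretch, the lesions spanned 0.014 in mouse 1770, 0.022 in mouse 2064 and 0.19 in mouse 608 on design A. In mouse 2094 they spanned 0.33 there, which was wider than for Ezr and Sytl3.

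Of the 18 other gene names in the region, 8 have probes on both designs, and of these 3 were higher and 5 lower than the rest of the chromosome. Arid1b, a chromatin remodelling subunit, had the highest level (0.46, adjusted p = 3.14e-12) and Rps6ka2, a ribosomal S6 kinase, the lowest (-0.53, adjusted p = 6.07e-11). Design A has 30 probes of Arid1b and design B only 2, which stood at -0.019 and 1.39. Its level, a mean of the designs, therefore leaned on 1 oligo. The neighbours of the members were Snx9, a sorting nexin, at 0.21 (adjusted p = 1.78e-05), and ENSMUST00000165850 at -0.52 (adjusted p = 3.81e-11). The levels of the 5 members on both designs ran from 0.032 to 0.23.

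Relatives of the members elsewhere in the genome gave a scale for such levels, each taken against the rest of its own chromosome and read beside the 78.4% of all gene names called (38.5% higher, 40% lower). Of 7 measured ERM proteins and partners, 2 were higher (moesin, Msn, and merlin, Nf2, at 0.26 and 0.43) and 1 was lower (Slc9a3r2, -0.49). All 8 measured TFIIH genes were called, 5 higher, with Gtf2h2 highest at 0.53, and 3 lower, with Ercc3 lowest at -0.49. Of 7 inositol 5-phosphatases 2 were higher, Synj2 among them, and 4 lower, with Inpp5j lowest at -0.43. Of 6 Rab27 and synaptotagmin-like genes 3 were higher, led by Sytl4 at 0.49, and 0 lower. The tubby family spread most widely, from -0.84 for Tulp1 to 0.64 for Tulp3, with 2 of 5 higher and 1 lower. In the comparison of the groups, 0 genes of these lists passed, as in all gene names (0%).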

How the data were processed

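Genomic DNA of 21 tumours was hybridized to Agilent 2-colour arrays. The authors deposited scanner output of Feature Extraction 11.0.1.1 for each array, in which each spot has raw intensities, a local background and processed intensities that the software had background-corrected and dye-normalized. Log10 ratios, which the authors deposited as reference over tumour, served here only to settle the direction. A series table, deposited by the authors, holds log2 ratios after loess for part of the probes (0 columns unmatched). Here log2 of processed tumour over reference signal was centred on each array's median, without control or outlier spots, and spots of 1 probe were averaged. Levels of 1-Mb windows (at least 5 probes per design), gene names and probes, with the rest of the chromosome subtracted, were tested two-sided in limma 3.58.1 under R 4.3.3 (lmFit, eBayes, and duplicateCorrelation to block by mouse), and p-values were adjusted by Benjamini and Hochberg over all features, at a threshold of 0.05. P-values measure the spread between these tumours and mice, not the spread between the probes of a window or gene. The within-mouse correlation in the level fits was -0.24 for windows and -0.11 for gene names. These fits thus treated lesions of 1 mouse as less alike than lesions of different mice. This makes the SE of a level smaller than it would be for independent tumours.

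The members and lists were chosen with earlier results of these data known, and the duplicated stretch, the dim probe and mice 604, 608 and 612 after their values were seen. The named genes are the members, the extremes and neighbours in the region, 3 genes with the likest profile, and 5 gene families. Probes were matched to GRCm38 (annotation GENCODE), without conversion of mm9 coordinates; copies were searched on the first 20 Mb of chromosome 17. In data simulated over 2224 windows, 99 of 100 levels of 0.2 and 94 of 100 of 0.1 were called, with 10 calls among unchanged windows. The simulated noise was independent between tumours and windows, without effects of mice, arrays or probes. It therefore gives no rate of false calls for the real arrays, where 81% of windows were called. Other steps used Python 3.11.15, numpy 2.4.6 and pandas 2.3.3. A further observation is not reported here.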

Additional observations from a re-analysis of the deposited data

How the results depend on the processing

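Of 645 values recomputed under 36 settings, 280 of them by leaving out 1 mouse, 592 kept their direction and their side of the threshold, or moved within the spread. A group difference that moved by less than the SD between mice was counted as kept even where its sign turned. Counts of features were kept if similar in size. Leaving out each mouse in turn, with the within-mouse correlation of the full fit, gave levels of 0.067 to 0.081 at 5 to 6 Mb, 0.18 to 0.25 at 6 to 7 Mb and -0.26 to -0.24 at 7 to 8 Mb. The group differences at 6 to 7 Mb, on array-centred values, then ran from -0.22 to -0.16. That window was chosen by this same contrast, so the range is a description and no support for a difference. No paired analysis was possible because each mouse belongs to 1 group.

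The level at 5 to 6 Mb did not pass with the median of the probes (0.034), against the 10 Mb around the region (0.023) or within design B (0.029), and in windows of 0.5 Mb its distal part was at -0.031. Among the genes, Serac1 changed sign after correction for probe GC (-0.0087) and within design B (-0.095), Ezr against the surrounding 10 Mb (-0.021), without mice 604, 608 and 612 (-0.0091) and within design B (-0.011), and Sytl3 within design B (-0.027). On array-centred values, the group difference at 6 to 7 Mb was -0.088 without the duplicated probes, and -0.053 with the design term as well. It was 0.064 at 5 to 6 Mb within design A, and -0.15 at 7 to 8 Mb with the loess-normalized ratios. Within design A, 2 windows and 8 gene names passed the test of the groups. That test compared 3 anti-PD1 mice, which are mice 604, 608 and 612, with 3 CD-HFD mice. The within-mouse correlation in these fits was -0.50 for windows and -0.56 for gene names. Such negative values make the SE smaller than it would be for independent tumours, so these counts are no support for a difference between the groups. The design difference at 6 to 7 Mb was 0.15 with the loess-normalized ratios and 0.18 with common probes, and it passed with normexp (-0.099) and after GC correction (-0.16). At 7 to 8 Mb it was -0.026, 0.0084 with common probes and -0.019 with normexp, and at 5 to 6 Mb -0.019 with normexp. Loess left 0 windows past the design test and common probes 1, against 1330. The number of gene names called in level was 5512 and 6431 under these settings, against 10042, with fewer genes tested, and 2777 windows of 0.5 Mb were called. The cause of the other changes was not tested. The loess and common-probe settings gave no value at 5 to 6 Mb and the smaller windows none for the distal part of 6 to 7 Mb, for want of probes.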

Other observations

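Outside the region, the genes whose values followed the mean of the 6 members most closely over the 21 tumours were Kif6 on chromosome 17 (r = 0.67), Lims1 on chromosome 10 (r = 0.61) and Impg1 on chromosome 9 (r = 0.61), of 1854 genes with at least 3 probes on each design. All share the arrays and the reference pool, and Kif6 shares the chromosome of the members. The values were array-centred, minus the mean of the array design, without the rest of chromosome 17 subtracted. A shift of that whole chromosome would therefore enter both Kif6 and the members, which was not tested. These r values are the highest of 1854 correlations, and no background for such maxima is given. Gtf2h5 has no probe on design A and did not enter the mean there.

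A second set of 9 probes with near copies lies at 7 to 8 Mb. Unlike the first stretch it held no common direction between the groups, with 3 probes lower and 6 higher in the anti-PD1 mice and differences of -0.18 to 0.34. Probes with more than 1 exact match are rare on these arrays, at 135 of 96579 (0.14%). Of these, 8 lie at 6 to 7 Mb and 7 at 7 to 8 Mb, and no window of 2563 holds more than 8.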
